A study of Homo sapiens with 6 samples.

Results

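The aryl hydrocarbon receptor (AHR) and 6 genes of its pathway were followed in cells labelled HepG2, a human liver cancer line, with and without exposure to cationic liposomes (CLs). The 7 genes are the receptor AHR, its partner ARNT, the repressors AHRR and TIPARP, and the cytochrome P450 genes CYP1A1, CYP1A2 and CYP1B1. They were chosen as a pathway by gene symbol, and all 7 were among the 40205 genes of the deposited table. Counts were available for 3 control libraries (Control-1 to Control-3) and 3 libraries of the CLs-treated group (CLs-1 to CLs-3). The labels name no genetic change in either group. Cells of both groups grew in 6-well plates for 24 h, after which the CLs-treated group received CLs for 24 h more. The dose is 120 μM in the sample labels, while the study's discussion gives the same figure in micrograms per ml. The CLs were made of the cationic lipid DOTAP, cholesterol and a PEG-lipid. The labels number the 3 libraries of each group but do not say whether they came from separate cultures, so p-values here measure the spread between these libraries, which may be technical. Values of a group are always given in the order of its library numbers.

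AHR is a transcription factor that waits in the cytosol, bound to heat shock protein 90, and moves to the nucleus when it binds planar aromatic chemicals or certain tryptophan metabolites. There it pairs with ARNT and binds short DNA elements with the core GCGTG, which switches on CYP1A1, CYP1A2, CYP1B1 and its own repressors AHRR and TIPARP. In the liver the pathway is best known for inducing enzymes that oxidise dioxin-like and polycyclic aromatic compounds, and CYP1A2 is a characteristic product of mature hepatocytes.

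Upstream sequences of 4 target genes are shown here, since the pathway acts through this core and the genes range from the most read of the 7 to one with no reads. Each line holds the 250 bases before a gene's start in RefSeq on GRCh38.p14, read 5′ to 3′ on the gene's strand, with capitals at every GCGTG and at its reverse complement CACGC. For AHRR and TIPARP the window of the most upstream start is shown.
CYP1A1, chr15:74725529-74725778, - strand: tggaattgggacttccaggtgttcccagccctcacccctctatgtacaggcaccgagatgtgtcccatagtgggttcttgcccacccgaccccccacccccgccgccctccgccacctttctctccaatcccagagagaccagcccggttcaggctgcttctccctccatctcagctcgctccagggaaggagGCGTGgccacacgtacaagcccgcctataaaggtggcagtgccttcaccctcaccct
CYP1A2, chr15:74748595-74748844, + strand: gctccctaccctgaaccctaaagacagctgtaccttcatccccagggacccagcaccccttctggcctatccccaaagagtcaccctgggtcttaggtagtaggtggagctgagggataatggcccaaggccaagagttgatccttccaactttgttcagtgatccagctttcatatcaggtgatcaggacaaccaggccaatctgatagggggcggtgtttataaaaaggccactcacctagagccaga
AHRR, chr5:321464-321713, + strand: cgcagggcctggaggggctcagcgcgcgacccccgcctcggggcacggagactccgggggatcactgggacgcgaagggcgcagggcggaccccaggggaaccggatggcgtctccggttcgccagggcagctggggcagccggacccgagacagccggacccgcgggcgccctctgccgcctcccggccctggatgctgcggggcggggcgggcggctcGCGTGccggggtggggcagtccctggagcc
TIPARP, chr3:156674340-156674589, + strand: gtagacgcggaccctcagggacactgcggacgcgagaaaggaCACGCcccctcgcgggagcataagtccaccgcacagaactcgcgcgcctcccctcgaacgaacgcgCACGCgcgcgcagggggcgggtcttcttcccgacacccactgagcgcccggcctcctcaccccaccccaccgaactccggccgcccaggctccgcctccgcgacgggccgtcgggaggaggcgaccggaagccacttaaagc

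GCGTG was found 1 time before CYP1A1, beginning 57 bases before the start. It was found 1 time before AHRR, beginning 30 bases before the start. TIPARP held 2 matches on the opposite strand, beginning 208 and 142 bases before the start. The CYP1A2 window held none. Over all 9 windows of the 6 genes with an entry, 5 windows of 4 genes held the core when the 50 bases after the start were included, against 36.54% of all 35116 RefSeq windows. The longer form TNGCGTG, which contains the core, was present in 1 of the 9 windows, that of AHRR shown above, and in 5.51% of all windows. These matches are letters in short windows only.

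Transcripts that define the liver origin of HepG2 cells were near zero in these libraries. The list of 10 hepatocyte genes was checked, among them ALB (albumin), AFP (alpha-fetoprotein), TTR and APOB. Their summed counts were 4, 16 and 10 in the control libraries and 69, 2 and 0 in the CLs-treated libraries, and none of the 10 had enough reads to be tested. SERPINA1, the alpha-1 antitrypsin gene, gave 38 of the 69 counts. ALB had 8 counts in CLs-1 and 0 in each of the other 5 libraries, TTR had 0 in all 6, and HNF4A, the transcription factor that maintains hepatocyte identity, had between 0 and 9 counts. The measured levels therefore do not match the label, and the cells are called by their label without a claim about what they were. CLs-1 also stood apart from the other libraries. Its summed counts on 10 adrenal cortex markers were 486, against 11 to 32 elsewhere, and on 8 blood cell markers 769, against 151 to 272. In the blood cell list HBB, a haemoglobin gene, had 324 counts in CLs-1 and 0 to 4 elsewhere, and CD68, a macrophage gene, 149 to 291 in all libraries. COL1A2, a fibrillar collagen gene, was read 1044 times in CLs-1 and no more than 2 times in each other library. Other stromal markers were also highest in CLs-1, with THY1 at 58 counts against 0 or 1 elsewhere and BGN at 40 against 0 or 1. DCN, LUM and COL1A1 were highest there too, while COL3A1, PDGFRB, ACTA2 and POSTN were not in CPM. The 10 stromal markers summed, mostly COL3A1, did not set CLs-1 apart, at 950 CPM against 734 to 1109 CPM elsewhere. CPM scales each count by the TMM-adjusted total of its library. Of the defining adrenal markers, STAR reached 290 counts in CLs-1 against 0 to 3 elsewhere, CYP11A1 151 against 11 to 29, and CYP11B1, CYP11B2, CYP21A2 and MC2R were at 0 in all libraries. Fold changes of the pathway genes and medians of the gene lists are therefore also given without CLs-1 where it moved them. In bulk RNA, fewer cells of a type and less RNA per cell cannot be told apart. Total counts per library ranged from 11418527 to 13998946.

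**Figure D1:**
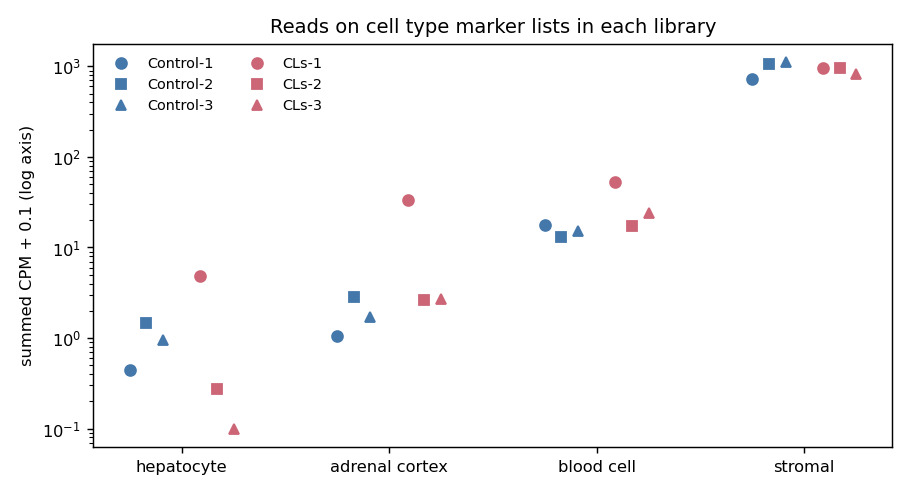
Summed CPM plus 0.1 on 4 lists of cell type markers (10 hepatocyte, 10 adrenal cortex, 8 blood cell and 10 stromal genes), on a log axis, for the 3 control libraries (blue) and the 3 CLs-treated libraries (red); marker shapes are the library numbers. Hepatocyte markers summed to at most 4.78 CPM in any library, and CLs-1 was the highest library for the hepatocyte, adrenal cortex and blood cell lists but not for the stromal list. The stromal sum is mostly COL3A1.

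None of the pathway genes passed the study's thresholds (fold change over 1.5 or under 0.67, adjusted p below 0.05) when groups were compared by the quasi-likelihood test of edgeR, with Benjamini-Hochberg adjustment over the 15047 genes tested. The study itself applied these thresholds with EBSeq, which was not run here, and called more genes. Among all tested genes 0.0864% passed in edgeR, so a count of 0 among 6 tested genes is near the background. At an unadjusted p-value under 0.05 there was again none of the 6, against 5.81% of all tested genes, and DESeq2 also called none of the 6. CYP1A1 and CYP1B1 had the highest fold changes of the pathway, AHRR the lowest, and AHR, ARNT and TIPARP lay near 0. The median log2 fold change of the 6 tested genes was 0.01, as it was for all 15047 genes. In all 6 genes the libraries of the 2 groups overlapped, while in 5.34% of all tested genes every CLs-treated library lay above every control library and in 6.18% below. For groups of 3 libraries the smallest p that the exact permutation test (two-sided) can give for a gene is 0.10.

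**Figure D2:**
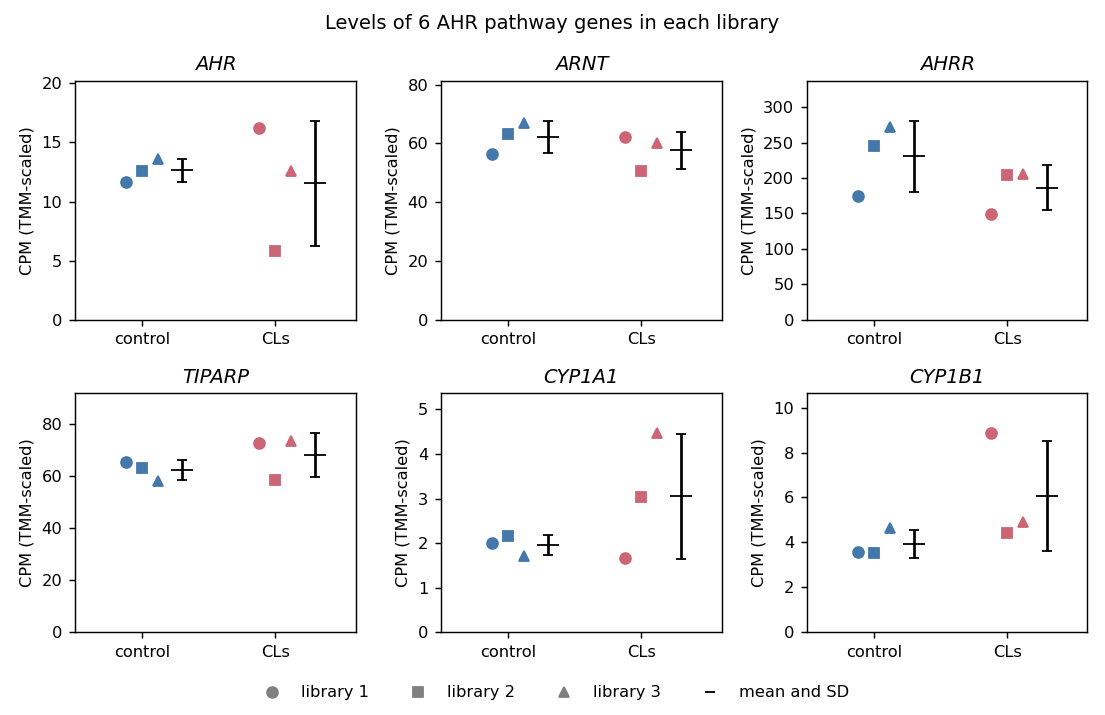
CPM (counts scaled by the TMM-adjusted total of each library) of AHR, ARNT, AHRR, TIPARP, CYP1A1 and CYP1B1 in each of the 3 control (blue) and 3 CLs-treated (red) libraries, each panel from 0, with the mean and SD beside the points; CYP1A2 had no reads and is not drawn. The groups overlap in all 6 panels, and the SD was larger in the CLs-treated group for all genes drawn except AHRR.

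AHR, the receptor itself, had CPM values of 11.6, 12.6 and 13.6 in the control libraries. In the CLs-treated libraries the values were 16.2, 5.79 and 12.6 CPM. The control libraries lay close together, and the CLs-treated libraries held both the highest and the lowest value of the 6. The mean went from 12.6 ± 0.999 to 11.5 ± 5.29 CPM (SD, n = 3), and the log2 fold change was -0.12 with a standard error (SE) of 0.30 (adjusted p = 0.998, edgeR). The 95% interval of the fold ran from 0.578 to 1.46, which includes a decrease past the fold criterion as well as no difference. Without CLs-2 the log2 fold change was 0.19, and without CLs-1 it was -0.46, so the sign rested on a single library. CLs-1, highest for AHR, was also the library with the most marker reads of other cell types, whose part in the AHR value was not tested. In GENCODE, version 29 on GRCh38, AHR shares 2373 of its 8081 exon bases with AC019117.2 on the same strand, a symbol that the count table does not list.

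ARNT, the nuclear partner that AHR shares with the hypoxia-inducible factors, was steadier. It had 56.4, 63.3 and 67.1 CPM in the control libraries and 62.3, 50.5 and 60.1 CPM in the CLs-treated libraries. CLs-2 was the lowest of the 6 libraries for ARNT, as it was for AHR. The mean went from 62.2 ± 5.43 to 57.6 ± 6.29 CPM (SD, n = 3), and the log2 fold change was -0.11 with SE 0.14 (adjusted p = 0.998, edgeR). The 95% interval of the fold, 0.748 to 1.15, lay inside the fold criteria. Without CLs-1 the log2 fold change was -0.17, and without CLs-2 it was -0.02.

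AHRR, a repressor that competes with AHR for ARNT, had the most reads of the 7 genes. Its counts were 2018, 2844 and 3168 in the control libraries and 2158, 2369 and 2346 in the CLs-treated libraries. Scaled to CPM these were 175, 246 and 272 in the control libraries and 149, 205 and 206 in the CLs-treated libraries. The lowest value was CLs-1 and the next lowest Control-1, so the groups overlapped. The mean CPM was 231 ± 49.9 in the control group and 187 ± 32.2 in the CLs-treated group (SD, n = 3), and the log2 fold change was -0.31 with SE 0.19 (adjusted p = 0.939, edgeR). The 95% interval of the fold ran from 0.608 to 1.07. Leaving out CLs-1 or Control-3 gave -0.17, and leaving out Control-1 gave -0.47. In the same annotation AHRR shares 244 of its 7678 exon bases with PDCD6 on the same strand, which is 3.18%. PDCD6, a calcium-binding protein gene, had 2431 to 3616 counts per library, and reads could have been split between the 2 genes at those bases.

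TIPARP, a mono-ADP-ribosyltransferase induced by AHR that dampens the receptor, had 65.6, 63.3 and 58.1 CPM in the control libraries. In the CLs-treated libraries it had 72.7, 58.5 and 73.4 CPM. CLs-1 and CLs-3 lay above all controls and CLs-2 lay among them. The mean went from 62.3 ± 3.85 to 68.2 ± 8.40 CPM (SD, n = 3), and the log2 fold change was 0.13 with SE 0.14 (adjusted p = 0.998, edgeR). The 95% interval of the fold, 0.886 to 1.35, excluded the fold criterion in both directions. Leaving out CLs-1 gave 0.08 and leaving out CLs-2 0.23. TIPARP and its antisense partner TIPARP-AS1 share 37 exon bases in GENCODE, and TIPARP-AS1 had 1 to 11 counts per library.

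CYP1A1, the oxidising enzyme that serves as the standard readout of AHR activity, was low in all libraries. Its counts were 23, 25 and 20 in the control libraries and 24, 35 and 51 in the CLs-treated libraries. In CPM the control libraries held 2.00, 2.16 and 1.72 and the CLs-treated libraries 1.66, 3.03 and 4.47. CLs-2 and CLs-3 lay above every control. CLs-1 lay below every control, but close to the lowest of them, Control-3. The mean went from 1.96 ± 0.225 to 3.05 ± 1.40 CPM (SD, n = 3), and the log2 fold change was 0.62 with SE 0.37 (adjusted p = 0.939, edgeR, and exact permutation p = 0.40). The 95% interval of the fold, 0.874 to 2.72, included both no difference and a rise past the fold criterion. Without CLs-1 the log2 fold change was 0.93 (adjusted p = 0.432 from the same test), and without CLs-3 it was 0.24.

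CYP1B1, a related enzyme that also oxidises estrogens, showed the reverse dependence on CLs-1. It had 41, 41 and 54 counts in the control libraries and 128, 51 and 56 counts in the CLs-treated libraries. In CPM these were 3.56, 3.54 and 4.63 in the control libraries and 8.86, 4.41 and 4.91 in the CLs-treated libraries. CLs-1 was the highest library by far, and CLs-2 lay below Control-3. The mean went from 3.91 ± 0.624 to 6.06 ± 2.44 CPM (SD, n = 3), and the log2 fold change was 0.64 with SE 0.30 (adjusted p = 0.865, edgeR, and exact permutation p = 0.20). Without CLs-1 the log2 fold change was 0.25. The adrenal cortex, blood cell and hepatocyte marker counts given above were highest in the same library, as were stromal genes such as COL1A2. Their part in the CYP1B1 value was not tested. On the opposite strand CYP1B1 overlaps CYP1B1-AS1, which had at most 1 count in any library, and 96 exon bases of RMDN2, which had 53 counts in CLs-1 and 16 to 30 elsewhere.

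CYP1A2, the hepatocyte enzyme that metabolises caffeine, had 0 counts in all 6 libraries. At these depths a count of 0 allows up to 0.208 to 0.263 CPM per library, the level of 3 counts, for counting error only. No fold change was computed for it.

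**Figure D3:**
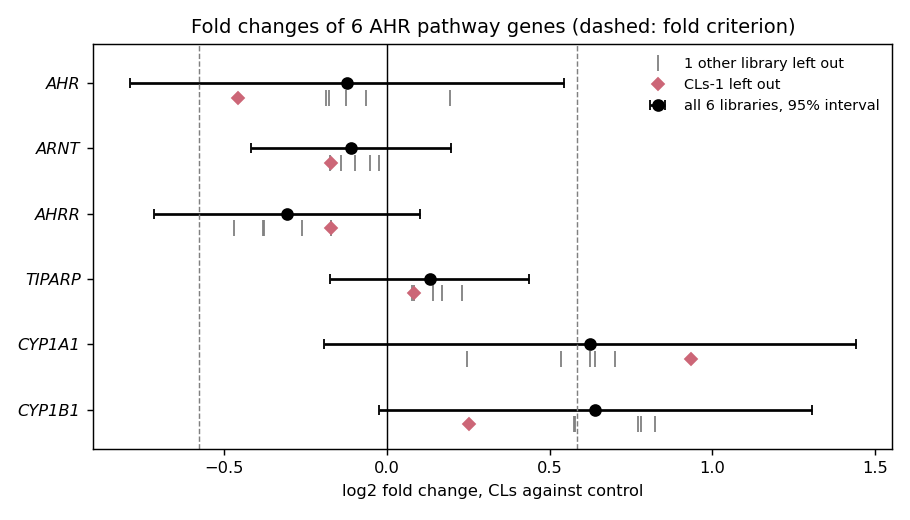
Log2 fold changes of the CLs-treated against the control group for the 6 tested genes of the AHR pathway, with 95% intervals (black), the values with CLs-1 left out (red diamonds) and with each other library left out (grey ticks); dashed lines mark the fold criteria. All 6 intervals include 0, and leaving out CLs-1 moved CYP1A1 to 0.93 and CYP1B1 to 0.25.

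Levels between genes were compared per length, as RPKM, here the CPM divided by the length in kilobases of the longest GENCODE transcript that has a RefSeq match. The order from high to low was AHRR, TIPARP, ARNT, AHR, CYP1B1, CYP1A1 and CYP1A2, and it was the same when the union of all exons was taken as the length. AHRR ranged over the 6 libraries from 26.4 to 48.0 RPKM, TIPARP from 13.9 to 17.6 and ARNT from 10.3 to 13.7. AHR ranged from 0.923 to 2.58 RPKM, CYP1B1 from 0.674 to 1.69 and CYP1A1 from 0.619 to 1.66. AHRR stood above TIPARP, and TIPARP above ARNT, in 6 of 6 libraries. The repressors AHRR and TIPARP stood above the receptor and its partner, and the CYP1 enzymes lay at the bottom. The ranges of AHR, CYP1B1 and CYP1A1 overlapped. AHR was above CYP1B1 in 6 of 6 libraries and above CYP1A1 in 5 of 6, while CYP1B1 was above CYP1A1 in 2 of 6.

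**Figure D4:**
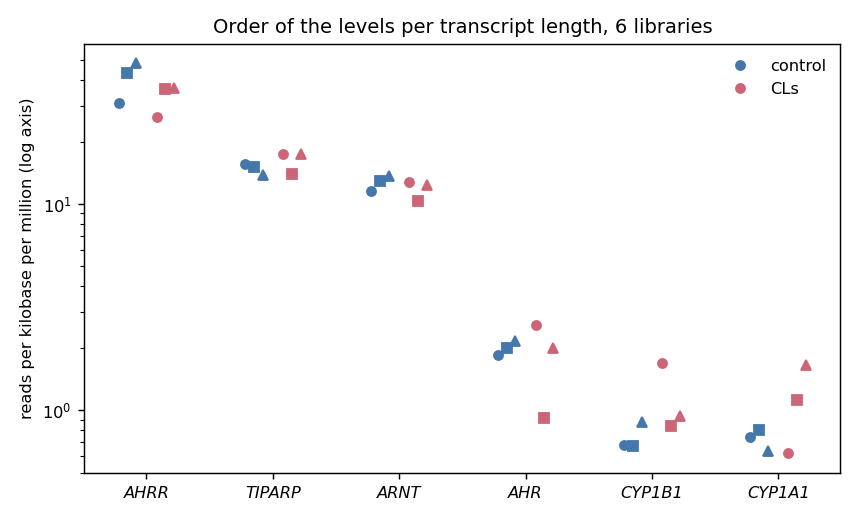
RPKM (CPM per kilobase of transcript) of the 6 detected genes, in order of their mean, on a log axis; each point is 1 library, with control libraries in blue and CLs-treated libraries in red. AHRR sits highest, at 26.4 to 48.0, and CYP1B1 and CYP1A1 overlap at the bottom, at 0.619 to 1.69.

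The ratio of AHRR to AHR per length was 16.7, 21.6 and 22.1 in the control libraries. In the CLs-treated libraries it was 10.2, 39.2 and 18.1. The control ratios lay inside the range of the CLs-treated ones. ARNT exceeded AHR by 6.22, 6.45 and 6.32 times in the control libraries, a narrow range, and by 4.94, 11.2 and 6.12 times in the CLs-treated libraries. CLs-2, with its low AHR level, set the upper end of both ratios.

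For likeness of pattern, each gene's log2 CPM was centred on its mean over the 6 libraries and the root mean square difference to every other tested gene was taken, as a description. The genes nearest to AHR were RNF144A, KCNJ14 and SGMS2, at 0.11 to 0.12 log2 units. Those nearest to AHRR were EFHD2, LLGL2 and PPIAP6, and those nearest to TIPARP were ZNF473, BTBD10 and ZNF532. CELSR1 was nearest to ARNT, for which 486 genes lay within 0.1 log2 units. For CYP1A1 they were PKD1P1, TIMM8BP2 and HIST2H4B, pseudogenes and a histone gene whose reads may be shared with near-identical copies. BAHCC1, ZNF529 and PNPT1P1 were nearest to CYP1B1. None of the 7 pathway genes was among the nearest of another, and by this measure the closest pair of them was ARNT and TIPARP at 0.17 log2 units. Both genes varied little, over ranges of 0.41 and 0.34 log2 units, which keeps the difference small. Their Pearson correlation was only 0.16. The highest correlation of a pair was 0.87, between AHR and ARNT, both lowest in CLs-2.

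The rest of the pathway was read from 6 lists. None of their tested genes passed the criteria in edgeR's test. Before adjustment 5 had p under 0.05 in edgeR, among them NQO1, KYNU, CYP4F3 and CYP4F11, against 5.81% of all tested genes. By list these were 1 of 12 coregulators, 1 of 14 further targets, 1 of 6 ligand enzymes and 2 of 8 receptors and P450s. The 7 genes of the cytosolic complex and the 14 relatives held 0. DESeq2 called 1 gene, KYNU. The AHR cytosolic complex holds the heat shock protein 90 genes, co-chaperone genes such as PTGES3, HSPA8 and the nuclear transport genes XPO1 and KPNA2. All 7 were tested, 5 had a log2 fold change above 0 and 2 below, and the median was 0.14, against 0.01 for all tested genes. PTGES3, the p23 co-chaperone, and HSP90AA1, the inducible heat shock protein 90 gene, had log2 fold changes of 0.18 and 0.19 (adjusted p = 0.998 for both in edgeR). The median of this list was -0.04 without CLs-1 and 0.00 without Control-3.

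Among the relatives of AHR that share its bHLH-PAS fold, with the PAS coactivators and period genes, 14 of 18 genes were tested, 4 above 0 and 10 below, with a median of -0.06, which was -0.16 without CLs-1 and turned to 0.06 without CLs-2 and 0.01 without Control-3. PER1, a clock gene, and EPAS1, the hypoxia-inducible factor 2 alpha gene, both had a log2 fold change of -0.33 (standard errors 0.16 and 0.18, adjusted p = 0.872 and 0.916 in edgeR). NPAS1 had 0.35. Of the coregulators, 12 of 13 were tested, 4 above 0 and 8 below, with a median of -0.12, which was -0.22 without CLs-1 and -0.03 without CLs-2. SMARCA4, a chromatin remodelling ATPase, had 450, 454 and 416 CPM in the control libraries and 368, 354 and 381 CPM in the CLs-treated libraries. RELA, a subunit of NF-kB, had 91.1, 87.1 and 85.0 CPM in the control libraries and 72.8, 71.0 and 77.4 CPM in the CLs-treated libraries. In both genes every CLs-treated library lay below every control. This held for 3 of the 12 tested coregulators, against 6.18% of all tested genes. The log2 fold changes of SMARCA4 and RELA were -0.26 and -0.25 (adjusted p = 0.869 and 0.872 in edgeR).

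Of 23 further genes described as AHR targets, 14 were tested, 9 above 0 and 5 below, with a median of 0.17. Leaving out 1 library brought this median to 0.09 (CLs-1, CLs-3 or Control-2) or 0.10 (Control-1). Log2 fold changes ranged from -0.53 to 1.24, and the upper end, EREG, a growth factor gene singled out after its values were seen, was 0.05 without CLs-1. NQO1, a quinone reductase that is a target of both AHR and the oxidative stress factor NRF2, had the lowest p-value. It had 525, 601 and 566 CPM in the control libraries and 647, 805 and 1096 CPM in the CLs-treated libraries. Each CLs-treated library lay above each control, and CLs-3 was the highest. The mean went from 564 ± 38.1 to 849 ± 228 CPM (SD, n = 3), and the log2 fold change was 0.59 with SE 0.19 (adjusted p = 0.462, edgeR, and exact permutation p = 0.10). Without CLs-3 the log2 fold change was 0.36. NQO1 was the 1 gene of the 14 whose CLs-treated libraries all lay above the controls, a share near the 5.34% of all tested genes. CYP2S1, another P450, had a log2 fold change of -0.53 and PTGS2, the inducible cyclooxygenase, one of 0.78, with adjusted p = 0.864 and 0.918 in edgeR. PTGS2 was 0.23 without CLs-1 and 0.46 without Control-1, and CYP2S1 was -0.30 without Control-3 and -0.81 without CLs-3. ALDH3A1, an aldehyde dehydrogenase long used as an AHR marker, was singled out after its values were seen. It had 21.8, 52.2 and 86.7 CPM in the control libraries and 31.8, 82.3 and 217 CPM in the CLs-treated libraries. Its groups overlapped and its log2 fold change was 1.04 with SE 0.59 (adjusted p = 0.926, edgeR), which was 0.09 without CLs-3. UGT1A1 and UGT1A6 had at most 1 count in any library. They share exons within the UGT1A locus, and reads on shared exons may not have been assigned to either.

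CLs-3 had the highest and CLs-1 the lowest value of the 3 CLs-treated libraries in CYP1A1, NQO1 and ALDH3A1. This was not the pattern of the whole target list, in which CLs-1 was lowest among these libraries in 6 of the 14 tested genes and highest in 6.

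**Figure D5:**
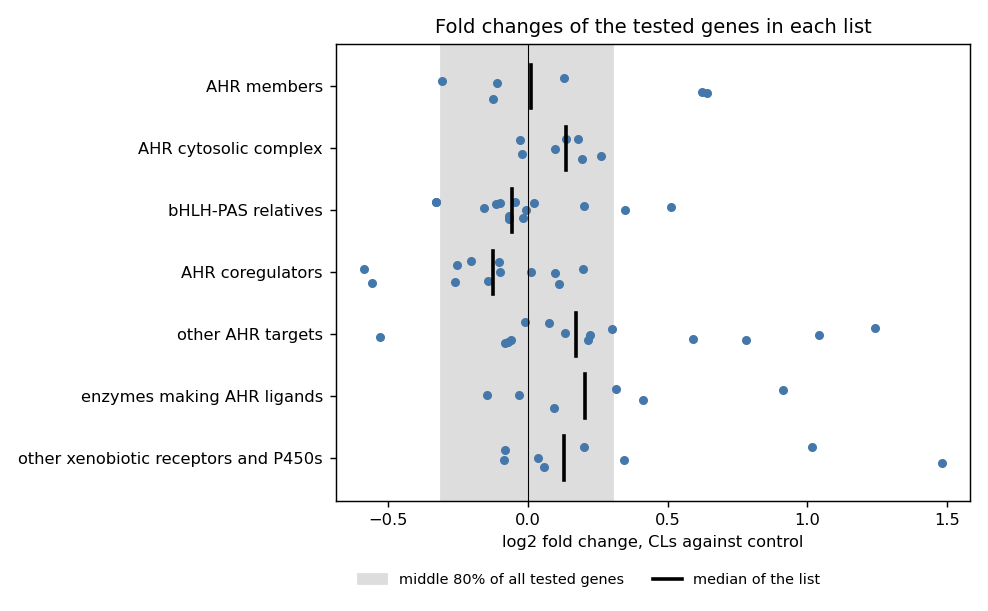
Log2 fold changes of the CLs-treated against the control group for the 6 tested AHR pathway genes (top row) and of 6 further lists; each point is a gene, spread in height within its row for legibility, black bars are list medians and the grey band holds the middle 80% of all tested genes, from -0.31 to 0.30. List medians lie between -0.12 and 0.20, and the band describes single genes, not medians.

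Of the 12 enzymes that make or break down tryptophan-derived AHR ligands, 6 were tested, 4 above 0 and 2 below, with a median of 0.20. This median was 0.27 without CLs-1, 0.32 without Control-3 and 0.13 without CLs-3. TDO2 and IDO1, which open the route from tryptophan to kynurenine, had at most 4 counts in any library, and IDO2 had 0 in all. KYNU, which cleaves kynurenine, had 123, 125 and 111 CPM in the control libraries and 180, 220 and 277 CPM in the CLs-treated libraries. It did not pass in edgeR, with a log2 fold change of 0.91 and adjusted p = 0.0808. The paper, which used EBSeq, lists KYNU among its differentially expressed genes. CCBL2, a kynurenine aminotransferase gene, had a log2 fold change of 0.41 and AADAT, another aminotransferase, one of 0.31. The groups did not overlap in KYNU and CCBL2, 2 of the 6 tested genes, against 5.34% of all genes.

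The other receptors and P450 enzymes of drug metabolism mostly had few or no reads. Of 28 genes, 20 were not tested and 14 had at most 3 counts in every library. The xenobiotic receptor gene NR1I2 (PXR) had 0 counts in all 6 libraries and NR1I3 (CAR) at most 1 in any, while CYP3A4 had at most 2. Of the 8 tested genes 6 were above 0 and 2 below, with a median of 0.13. This median was 0.19 without CLs-1, 0.07 without CLs-2 and 0.20 without Control-2. CYP4F11, a fatty acid omega-hydroxylase, had 1.30, 3.11 and 0.172 CPM in the control libraries and 3.46, 3.37 and 6.05 CPM in the CLs-treated libraries, and the log2 fold change was 1.48 with SE 0.59 (adjusted p = 0.758, edgeR). The groups of CYP4F11 did not overlap, though Control-2 and CLs-2 lay close and Control-3 had only 2 counts. All CLs-treated libraries lay above the controls in 2 of the 8 tested genes, against 5.34% of all tested genes. The log2 fold change of CYP4F11 was 0.95 without Control-3 and 2.53 without Control-2 (adjusted p = 0.370, edgeR). CYP4F3 had a log2 fold change of 1.02 and POR, the reductase that supplies electrons to P450 enzymes, one of 0.34, with adjusted p = 0.686 and 0.890 from the same test.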

How the data were processed

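RNA from cells labelled HepG2 was sequenced as single-end reads on an Ion Proton instrument, in 3 control and 3 CLs-treated samples. The authors mapped filtered reads with MapSplice and deposited raw whole-number counts per gene symbol, without normalization. The labels' processing notes list HTSeq 0.6.1 and the builds hg19 and GRCh37. The strand setting and the treatment of reads on several genes are not given in the sources used here.

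Counts were compared with edgeR 4.0.16 in R 4.3.3 (filterByExpr, TMM scaling, quasi-likelihood F test on condition alone, Benjamini-Hochberg adjustment over 15047 genes). Standard errors were derived from the F statistic, and 95% intervals from the t distribution with the fit's degrees of freedom. CPM are counts scaled by the TMM-adjusted library total. Floors of 3 counts cover counting error only. The script was tested on simulated data.

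The pathway genes and lists were chosen with earlier results of these data known. From each list the text names the genes that passed or, with none, the 3 tested genes with the lowest p-value, and the nearest 3 genes in pattern for each pathway gene. From marker lists some of the genes with the most reads are named. ALB, AFP, TTR, APOB, HNF4A, COL1A2, ALDH3A1, overlapping genes and list genes with few or no reads were named after their values were seen. So were the stromal markers THY1, BGN, DCN, LUM, ACTA2 and POSTN. The alternatives were DESeq2 1.42.0, other scaling and filters, no fold criterion, a block for the replicate number, and fits that leave out 1 sample each.

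Lengths and exon overlaps come from GENCODE (GRCh38, not the build of the counts), and promoter windows from RefSeq (GRCh38.p14). Of the 7 genes, 6 had a window, with no entry for CYP1B1. Protein sequences were not analysed here. Some single genes that the rule names are not reported here.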

Additional observations from a re-analysis of the deposited data

How the results depend on the processing

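Across the 14 alternatives to the edgeR fit, the number of the AHR pathway genes that passed the criteria was 0 in each. Of 84 log2 fold changes of the 6 tested genes across these alternatives, 83 kept their sign. Those without the fold criterion came from the main fit and could not change. The value that changed sign was AHR without CLs-2, at 0.19 against -0.12, and leaving out each sample in turn gave AHR values from -0.46 to 0.19. The counts of all genes moved more. DESeq2 called 15 up-regulated and 90 down-regulated genes, the fit with no filter 58 and 113, and library totals only 2 and 6, against 2 and 11. With 1 sample left out, the number of up-regulated genes was 1 to 3 and that of down-regulated genes 2 to 6. Of 84 list counts, 81 were 0, and in the other 3 the ligand enzymes had 1 called gene, KYNU, in DESeq2 (adjusted p = 0.000102), with no filter (0.00049) and with the replicate block (0.0285).

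The replicate numbers were checked by the correlation of deviations from the group means, which was 0.111, 0.0987 and 0.305 for the samples numbered 1, 2 and 3. Between unlike numbers it ran from -0.201 to 0.0783. The main fit did not pair the samples because the labels state no pairing, and this check did not settle whether they are paired. With the replicate block 12 genes were up-regulated and 56 down-regulated, none of them in the AHR pathway, where log2 fold changes were 0.56 for CYP1A1 and 0.59 for CYP1B1. Each sample correlated best with its own number among the 3 samples of the other group, a hint from the data only. ALDH3A1 had an adjusted p of 0.0502 in this fit.

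With 1 sample left out, the median of the further AHR targets ranged from 0.09 to 0.23. The longer core TNGCGTG was in 1 of the 9 windows and in 5.51% of all windows, against 5 and 36.54% for GCGTG. With CPM by library totals only, the group levels of the 6 tested genes moved by less than 1 SD, and those of CYP1A2 stayed at 0. The union of exons, a length chosen after the data were seen, lowered the mean level per length of ARNT from 12.3 to 9.20, of AHRR from 36.9 to 27.2 and of TIPARP from 15.6 to 12.9. Depth limits CYP1A1, with 20 to 51 counts per library, and CYP1A2, with 0.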
